A study of Mus musculus with 7 samples.

Results

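The 34 genes described here encode the enzymes of cholesterol and fatty acid synthesis, the SREBP system that controls them, and the proteins that move, store or export cholesterol. They were taken by gene symbol from a table of 21176 genes, and all 34 symbols were found; the list was drawn up with earlier results of these data known. RNA was sequenced from follicular dendritic cells (FDCs), the antigen-holding stromal cells of the B-cell follicle, isolated by cell sorting. The cells came from popliteal nodes of male mice that had not been immunized and were 8 to 12 weeks old. There were 4 wild-type (WT) samples and 3 from mice lacking Ngfr (Ngfr KO), which encodes the p75 neurotrophin receptor. Each sample pooled nodes from several animals; the kind of Ngfr allele and the strain are not given in the sources used here. The comparison asks which of these lipid genes differ when Ngfr is lost.

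Cholesterol is built from acetyl-CoA through mevalonate, isoprenoid units and squalene, and squalene is then closed into lanosterol and trimmed to cholesterol. When sterols run low in the endoplasmic reticulum, Scap escorts the SREBP transcription factors to the Golgi, where they are cut and released to switch on genes of sterol and fatty acid synthesis. Insig proteins hold Scap back when sterols are plentiful. When sterols are in excess, liver X receptors switch on Abca1 and Abcg1, the pumps that pass cholesterol to lipoproteins.

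The targeted gene Ngfr was covered by 97, 181, 298 and 298 reads in WT and 84, 104 and 46 in Ngfr KO, so reads remained in the samples labelled Ngfr KO, and the table does not show which exons they cover. Its normalised values were lower in all Ngfr KO samples than in any WT sample, but edgeR did not call it (log2 change -1.55, adjusted p = 0.0574).

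Of the 34 members, 29 had a normalised value of 1 or more in 3 or more samples and were tested; a value of 1 stood for 230 to 295 reads. A log2 change or difference is Ngfr KO minus WT on log2(value + 1). limma called 18 of them higher and 1 lower in Ngfr KO at a Benjamini-Hochberg adjusted p-value under 0.05. Among all 8326 genes tested, 34.2% were called, 18.3% higher and 15.8% lower. Of the 15 tested sterol enzymes 14 were called higher, and the other members called higher were Insig1, Insig2, Npc1 and Elovl6. The SREBP genes themselves and most core fatty acid enzymes were not called. Of the 4 tested transport and storage genes 2 were called, Npc1 and Abca1, and the exporter Abca1 was the only member called lower. In bulk RNA, fewer cells of a type and less RNA per cell cannot be told apart. The members' median log2 change was 0.76, against 0.02 over all genes tested. In 19 of the 29 tested members all Ngfr KO samples lay above all WT samples, against 22.6% of all genes tested. Mvk and Mvd passed the filter through the Ngfr KO samples alone, so these counts favour a rise in them. Without that filter on values, edgeR on the recovered reads called 17 of the 34 members higher and 1 lower, against 8.67% of its 16751 genes called higher. That share is not matched for level: 29 of the 34 members passed the filter on values, but at most 8326 of those 16751 genes did.

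**Figure D1:**
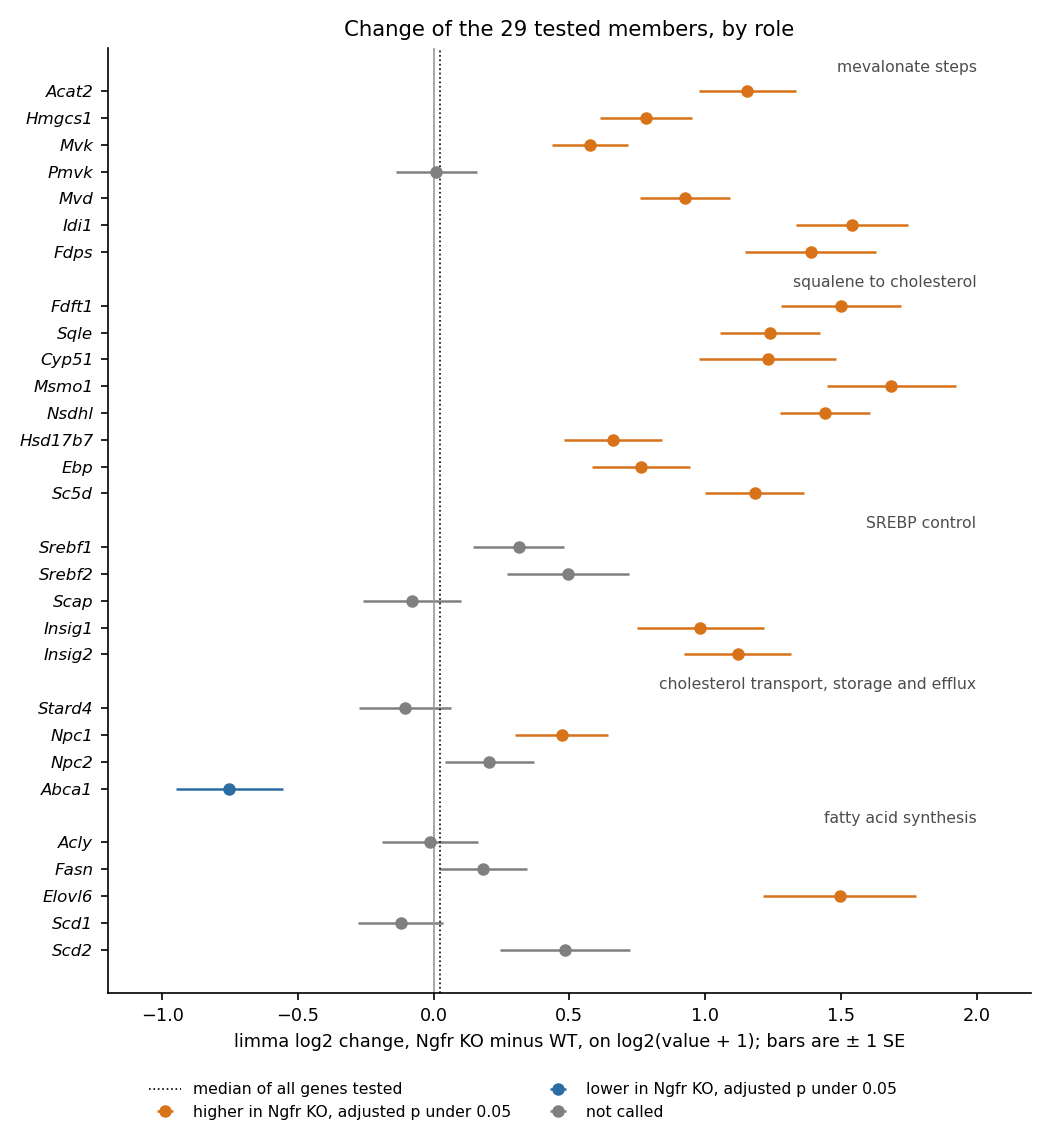
limma log2 change (Ngfr KO minus WT, on log2(value + 1)) of the 29 tested members, grouped by role; points are estimates and bars are 1 SE either side. The sterol enzymes lie to the right of the dotted median of all genes, apart from Pmvk, while Abca1 is the only filled blue point to the left.

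Promoter sequences of 26 of the 34 members were matched by symbol in RefSeq (GRCm38.p6), each window running from 250 bases before to 50 bases after a transcription start. Members that changed are shown because SREBP-dependent promoters are known to carry a sterol regulatory element beside binding sites for NF-Y and Sp1. Hmgcs1, Msmo1 and Insig1 were called higher and Abca1 lower. All are written 5′ to 3′ on the gene's strand, and capitals mark CCAAT in either direction and TCACNCCAC, a sterol-element core.
Hmgcs1 (chr13:119690101-119690400, plus strand): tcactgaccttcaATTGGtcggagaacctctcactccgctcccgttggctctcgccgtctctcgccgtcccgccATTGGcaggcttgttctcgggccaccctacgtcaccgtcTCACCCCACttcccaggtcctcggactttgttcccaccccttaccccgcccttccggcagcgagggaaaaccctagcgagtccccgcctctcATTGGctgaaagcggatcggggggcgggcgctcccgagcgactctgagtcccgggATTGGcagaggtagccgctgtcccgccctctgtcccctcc
Msmo1 (chr8:64733529-64733828, minus strand): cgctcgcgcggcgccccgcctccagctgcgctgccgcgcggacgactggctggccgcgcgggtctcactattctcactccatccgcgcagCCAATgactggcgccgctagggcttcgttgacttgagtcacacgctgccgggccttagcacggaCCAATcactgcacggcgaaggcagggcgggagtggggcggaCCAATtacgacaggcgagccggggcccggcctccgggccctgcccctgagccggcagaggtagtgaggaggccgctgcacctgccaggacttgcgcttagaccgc
Insig1 (chr5:28071162-28071461, plus strand): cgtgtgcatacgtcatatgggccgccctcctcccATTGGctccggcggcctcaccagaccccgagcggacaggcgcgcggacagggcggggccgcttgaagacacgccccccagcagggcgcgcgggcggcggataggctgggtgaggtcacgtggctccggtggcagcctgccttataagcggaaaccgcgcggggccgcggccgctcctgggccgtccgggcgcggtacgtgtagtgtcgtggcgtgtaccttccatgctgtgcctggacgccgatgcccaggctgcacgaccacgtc
Abca1 (chr4:53159846-53160145, minus strand): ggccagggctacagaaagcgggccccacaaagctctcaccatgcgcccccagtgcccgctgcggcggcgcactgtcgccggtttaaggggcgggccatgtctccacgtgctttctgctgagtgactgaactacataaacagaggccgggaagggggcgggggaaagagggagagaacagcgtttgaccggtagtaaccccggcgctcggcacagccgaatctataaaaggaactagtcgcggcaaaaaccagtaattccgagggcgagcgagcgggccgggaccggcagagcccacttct
The Hmgcs1 window held 1 match to TCACNCCAC, starting at base -137 from the transcription start, and 4 to CCAAT. Msmo1 held 3 matches to CCAAT, Insig1 held 1 and Abca1 none.

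Over both strands, CCAAT was found in windows of 21 of the 26 matched genes, and in 13 of the 14 sterol enzymes among them. It occurred in 64.7% of the 34 member windows, since some genes have several, and in 37.4% of all 32851 windows. The Sp1-type sequence GGGCGG was found for 22 of the 26 genes, in 76.5% of member windows and 35.7% of all windows. TCACNCCAC was found in Hmgcs1 alone among the members and in 1.24% of all windows. In the Hmgcs1 window no match to one of these motifs overlapped another, and a match is only a match of letters. CCAAT was found for 12 of the 14 matched members called higher and 9 of the other 12. GGGCGG without CCAAT was found for Abca1, called lower, Acat2, called higher, and Scap, not called.

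The early, mevalonate part of the pathway was higher in Ngfr KO in 6 of its 7 genes. Acat2, which joins acetyl-CoA units, had values of 0.868, 1.18, 1.76 and 1.03 in WT replicates 1 to 4 and 3.00, 4.56 and 4.19 in Ngfr KO replicates 1 to 3. Every Ngfr KO sample was above every WT sample, and the log2 difference was 1.16 (SE 0.18, limma adjusted p = 0.000960). Hmgcs1, the HMG-CoA synthase, had 3.81, 4.39, 4.20 and 2.62 in WT and 7.32, 6.89 and 7.05 in Ngfr KO, a log2 difference of 0.78 (SE 0.17, limma adjusted p = 0.00520). The Ngfr KO samples of Hmgcs1 lay close together, well above the WT range. Idi1, the isomerase that makes the reactive isoprenoid unit, had 3.17, 5.30, 6.21 and 3.47 in WT and 13.7, 16.1 and 14.4 in Ngfr KO. Its mean was 3.25-fold higher in Ngfr KO, with a log2 difference of 1.54 (SE 0.21, limma adjusted p = 0.000502). Fdps, which joins these units to farnesyl diphosphate, rose from 6.23 ± 2.21 (SD, n = 4) to 17.2 ± 1.4 (SD, n = 3), a log2 difference of 1.39 (SE 0.24, limma adjusted p = 0.00167). WT replicate 1 was the lowest in Fdps, at 3.25, and the other WT samples lay between 5.96 and 8.32.

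The mevalonate kinase Mvk and the decarboxylase Mvd were low in WT, at 0.584 ± 0.164 and 0.535 ± 0.212 (SD, n = 4). They reached 1.35 ± 0.10 and 1.92 ± 0.44 in Ngfr KO (SD, n = 3), and limma called both higher (adjusted p = 0.00924 and 0.00189). The pseudocount of 1 shrinks changes at such levels: on the recovered reads, edgeR gave log2 changes of 1.28 for Mvk and 1.92 for Mvd. Mvk was not called once each sample's trend with transcript length was removed (limma adjusted p = 0.0916). Pmvk, the kinase that acts between Mvk and Mvd, stood apart. Its values were 2.26, 2.30, 2.42 and 2.70 in WT and 2.04, 2.97 and 2.37 in Ngfr KO, so the groups overlapped. The log2 change of Pmvk was 0.01 (95% confidence interval -0.32 to 0.33, limma adjusted p = 0.968).

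In the later part, from squalene to cholesterol, all 8 tested genes were called higher, and 2 others, Lss and Dhcr7, did not pass the filter. Msmo1, the sterol methyl oxidase (ENSMUSG00000031604, GRCm38 chromosome 8, 64718139 to 64733792), had the highest mean level per kilobase of the sterol enzymes in both groups. In WT it was only narrowly above Ebp (2.51 against 2.45), and in Ngfr KO it was 8.14 against 4.46. The values of Msmo1 were 8.92, 17.8, 19.1 and 15.8 in WT and 48.2, 53.7 and 48.2 in Ngfr KO. The log2 change of Msmo1 was 1.69 (SE 0.24, limma adjusted p = 0.000645), the largest of all members on this scale. Nsdhl, which acts next in the removal of the same methyl groups, had 1.23, 2.10, 1.97 and 1.99 in WT and 7.14, 6.89 and 5.83 in Ngfr KO. Its mean was 3.63-fold higher, with a log2 difference of 1.44 (SE 0.16, limma adjusted p = 0.000308). Hsd17b7, which completes that step, had 1.05, 1.13, 2.06 and 2.06 in WT and 2.88, 3.21 and 2.92 in Ngfr KO. Its log2 change was smaller, at 0.66 (SE 0.18, limma adjusted p = 0.0155), and it was not called without Ngfr KO replicate 2 (0.0585) or without a filter (0.0582).

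Sqle, the squalene epoxidase and a rate-limiting step, had 1.83, 3.11, 2.62 and 3.32 in WT and 6.46, 9.00 and 7.74 in Ngfr KO, a log2 difference of 1.24 (SE 0.18, limma adjusted p = 0.000818). Fdft1, which makes squalene, had 2.50, 3.44, 6.22 and 3.15 in WT and 11.7, 12.7 and 12.0 in Ngfr KO, a log2 difference of 1.50 (SE 0.22, limma adjusted p = 0.000786). WT replicate 3 was the highest WT sample in Fdft1 and still lay below all Ngfr KO samples. Of the Fdft1 exon bases, 18.3% overlap Ctsb on the opposite strand, which was itself called higher (log2 change 1.12), and without strand information the reads there cannot be told apart. Cyp51, the lanosterol demethylase, rose from 3.51 ± 1.70 (SD, n = 4) to 9.12 ± 1.33 (SD, n = 3). The isomerase Ebp showed a log2 change of 0.76 and the desaturase Sc5d one of 1.18, with limma adjusted p-values of 0.00783 and 0.000964.

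Lss, the cyclase that closes squalene epoxide into lanosterol, had 98, 155, 120 and 218 reads in WT and 268, 371 and 252 in Ngfr KO. All its Ngfr KO values lay above all WT values, but edgeR did not call it (log2 change 0.97, adjusted p = 0.0735), while DESeq2 did (adjusted p = 0.0358). Dhcr7, the last reductase, was covered by 38 to 127 reads per sample, with overlapping groups and an edgeR adjusted p of 0.643.

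**Figure D2:**
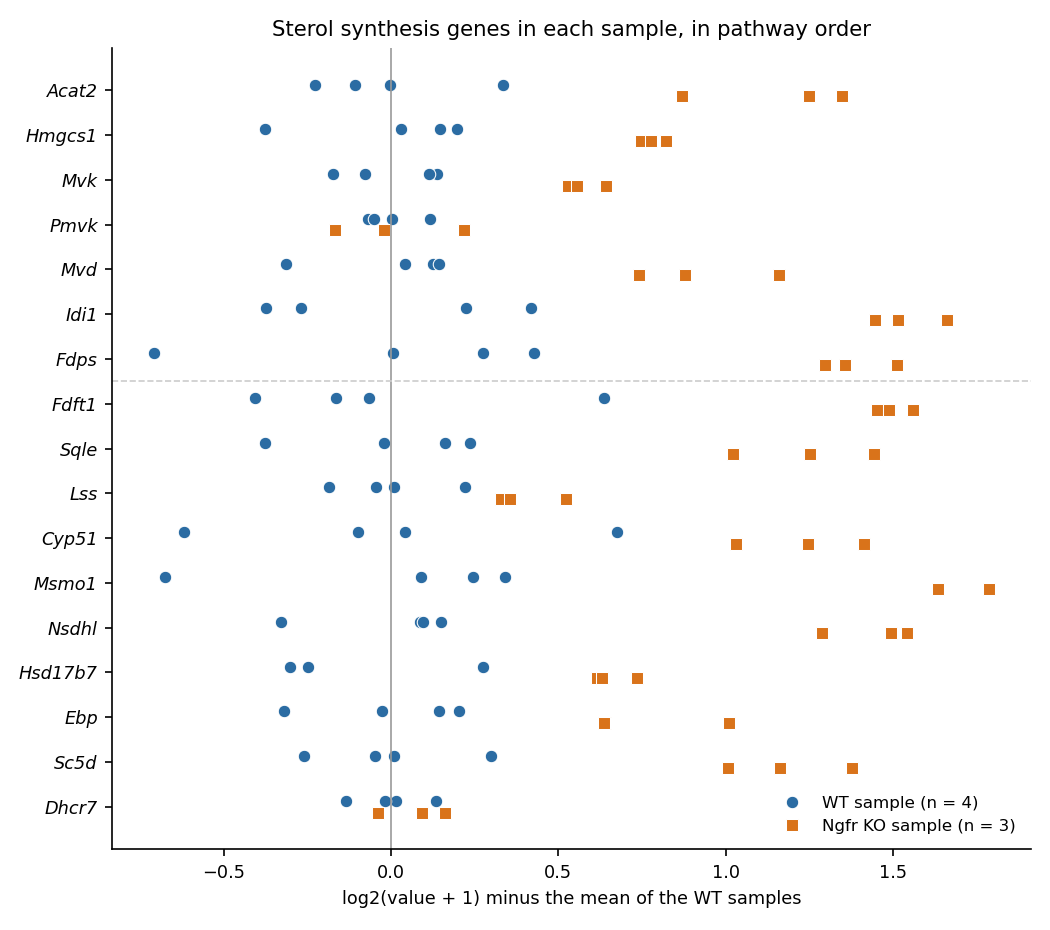
Each sample's log2(value + 1) minus the WT mean for the 17 sterol synthesis genes in pathway order (blue circles WT, orange squares Ngfr KO; the dashed line separates the mevalonate steps from the later ones). In 15 genes every square lies to the right of every circle; Pmvk and Dhcr7 overlap.

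Within WT, the sterol enzymes were lowest in 1 library. WT replicate 1 was the lowest WT sample in 14 of the 17 genes, and in 28.6% of all genes tested. The 17 values summed to 43.7, 66.7, 79.2 and 65.6 in WT replicates 1 to 4 and to 162, 182 and 168 in Ngfr KO replicates 1 to 3. The sum was thus 2.68-fold higher in Ngfr KO, and WT replicate 1 lay farthest below. The median coefficient of variation over the 17 genes was 32.0% among WT and 13.6% among Ngfr KO samples, against 21.1% and 19.4% over all genes tested. Without WT replicate 1, 14 of the 15 tested sterol genes were still called higher.

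The samples also differed in which cell types' markers they held. FDC markers were present in all samples and 14 of 15 were called higher in Ngfr KO (median log2 change 1.41). Their values summed to 1841, 3992, 4225 and 5158 in WT and 8032, 8880 and 10546 in Ngfr KO. All 14 tested endothelial markers were called lower (median -1.51), from a sum of 135 to 185 in WT to one of 28.5 to 52.7 in Ngfr KO, and of the lymphatic endothelial markers 4 of 5. Of these, 6 endothelial and 1 lymphatic marker passed the filter through the WT samples alone, so those counts favour a fall. Without the filter, edgeR called 14 of the 15 listed endothelial markers lower. Of the markers of fibroblastic reticular cells and pericytes, other stromal cells of the node, 4 of 7 tested were called higher. They summed to 49.8, 75.7, 83.0 and 119.7 in WT and to 134.8, 121.3 and 184.7 in Ngfr KO, with no overlap and WT replicate 1 lowest. Macrophage and myeloid marker sums overlapped, running from 24.6 to 85.5 in WT against 31.5 to 54.6 in Ngfr KO. Of 2 tested, 1 was called higher (log2 change 1.70), and the other, at -1.95, was not called by limma. Both had an unadjusted p under 0.05, and of the whole list edgeR called 0 and DESeq2 called 2. WT replicate 1, lowest in most sterol genes, was also the lowest WT sample in 13 of the 15 FDC markers and had the highest endothelial sum. As a share of the FDC marker sum, which a few abundant genes dominate, the sterol sum was 2.38%, 1.67%, 1.87% and 1.27% in WT and 2.02%, 2.05% and 1.60% in Ngfr KO, so the groups overlapped. On the mean log2(value + 1) scale, the tested sterol genes lay 2.80 to 3.60 below the FDC markers in WT and 3.84 to 3.93 below them in Ngfr KO. The part of these marker shifts in the lipid gene results was not tested.

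**Figure D3:**
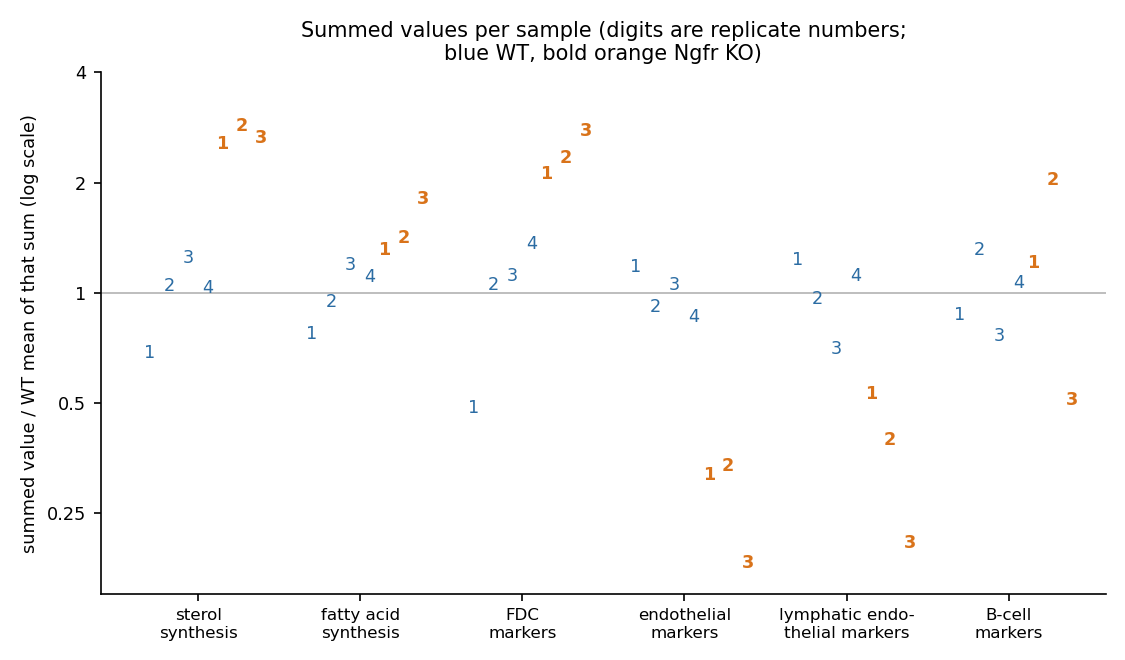
Summed normalised value of each list per sample, divided by the WT mean of that sum, on a log scale (blue digits WT replicates, bold orange digits Ngfr KO replicates). Sterol synthesis, fatty acid synthesis and FDC marker sums are higher and endothelial sums lower in all Ngfr KO samples. WT replicate 1 is lowest for the sterol, fatty acid and FDC sums, and B-cell marker sums overlap.

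Of the 5 genes of SREBP control, the Scap-binding proteins Insig1 and Insig2 rose and the others were not called. Insig1, which holds Scap in the endoplasmic reticulum and is itself an SREBP target, had 1.06, 2.61, 2.42 and 3.72 in WT and 5.18, 6.15 and 5.34 in Ngfr KO. Its log2 change was 0.98 (SE 0.23, limma adjusted p = 0.00821). Insig2, its paralog, had 6.32, 6.31, 11.0 and 6.86 in WT and 16.5, 17.7 and 17.8 in Ngfr KO, a log2 difference of 1.12 (SE 0.20, limma adjusted p = 0.00175). Neither gene's groups overlapped. Srebf2, the SREBP that mainly drives sterol genes, had 1.12, 1.46, 1.78 and 2.86 in WT and 1.94, 3.94 and 2.94 in Ngfr KO. Its groups overlapped through WT replicate 4, and the log2 change of 0.50 was not called (SE 0.22, limma adjusted p = 0.101). Without WT replicate 4 the log2 change of Srebf2 was 0.66 (limma adjusted p = 0.0319), so the call depends on that library. Srebf1, the SREBP that mainly drives fatty acid genes, showed a log2 change of 0.31 (95% confidence interval -0.05 to 0.68, limma adjusted p = 0.162). Scap showed a log2 change of -0.08 (95% confidence interval -0.47 to 0.31, limma adjusted p = 0.747).

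**Figure D4:**
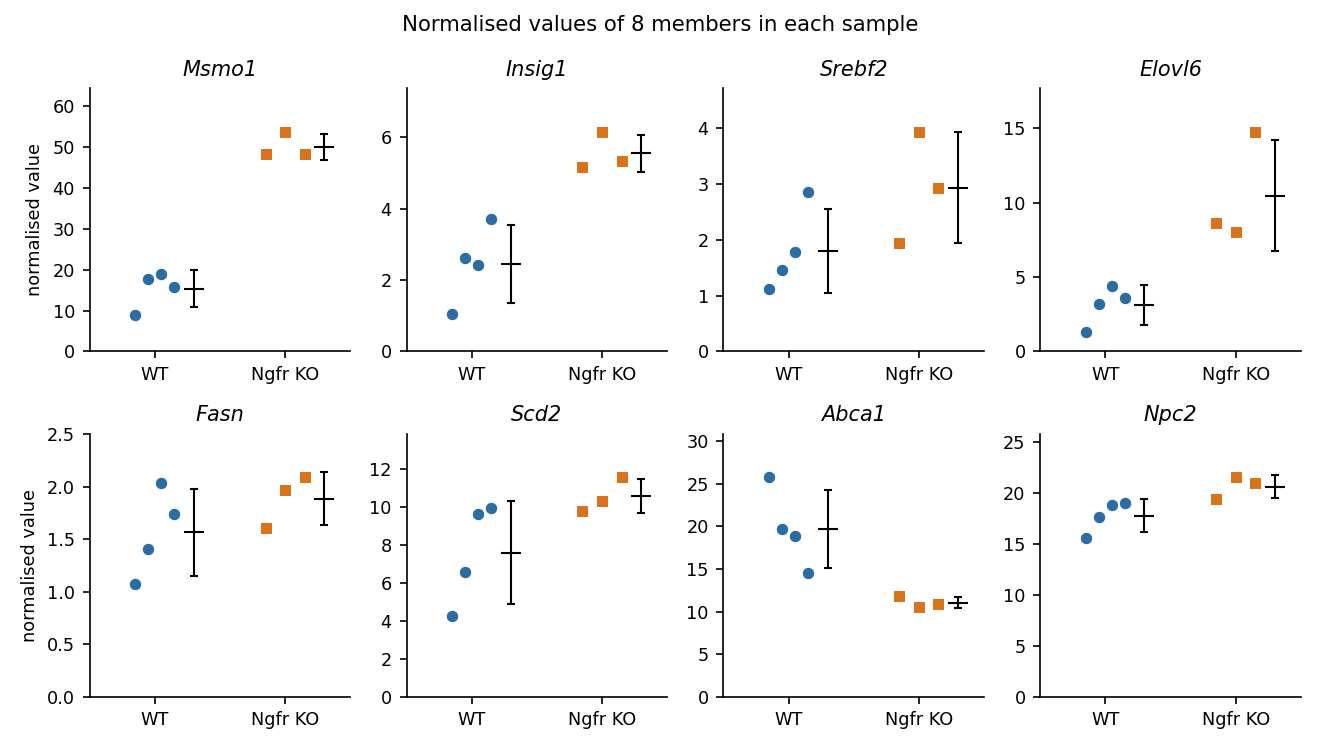
Normalised values of 8 members in each sample (blue circles WT, n = 4; orange squares Ngfr KO, n = 3; black marks are the mean and SD). The groups are apart for Msmo1, Insig1, Elovl6, Abca1 and narrowly Npc2, and overlap for Srebf2, Fasn and Scd2; 2 Msmo1 squares lie at the same height.

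Among the transport and storage genes the exporter moved against the synthetic enzymes. Abca1 (ENSMUSG00000015243, GRCm38 chromosome 4, 53030787 to 53159895) had 25.7, 19.6, 18.8 and 14.5 in WT and 11.8, 10.5 and 10.9 in Ngfr KO. Even the lowest WT sample was above all Ngfr KO samples, the WT mean was 1.78-fold the Ngfr KO mean, and the log2 difference was -0.75 (SE 0.20, limma adjusted p = 0.0126). Endothelial markers fell in the same samples, and Abca1 was 10.8% to 13.9% of the endothelial sum in WT and 20.0% to 38.0% in Ngfr KO. The part of that fall in the Abca1 result was not tested. Abcg1, the related exporter, was covered by 97, 147, 30 and 44 reads in WT and 56, 16 and 14 in Ngfr KO, and its lower mean was not called by edgeR (adjusted p = 0.223). Npc1, which releases cholesterol from lysosomes, had 1.76, 3.11, 2.36 and 2.18 in WT and 3.16, 3.46 and 4.24 in Ngfr KO. The groups of Npc1 barely separated, and its call (log2 change 0.47, SE 0.17, limma adjusted p = 0.0488) was lost under 12 of 17 alternatives, edgeR among them (adjusted p = 0.0641). Its luminal partner Npc2 had the highest level per kilobase of all members in WT. The value of Npc2, not divided by length, was 17.8 ± 1.6 (SD, n = 4) against 20.6 ± 1.1 (SD, n = 3), and it was not called (limma adjusted p = 0.345). Stard4, a cytosolic sterol carrier, showed a log2 change of -0.11 (95% confidence interval -0.47 to 0.26, limma adjusted p = 0.645). Soat1, which esterifies cholesterol for storage, did not pass the filter and had 112 to 278 reads per sample with overlapping groups.

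In fatty acid synthesis 1 of the 5 tested members was called, higher, which is 20% against 18.3% of all genes tested. The values of all 6 members, Elovl6 among them, summed to 15.4, 18.8, 23.8 and 22.0 in WT. In Ngfr KO they summed to 26.2, 28.3 and 36.0, with no overlap. Elovl6, which extends palmitate to stearate, had 1.30, 3.19, 4.42 and 3.61 in WT and 8.64, 8.01 and 14.8 in Ngfr KO. Ngfr KO replicate 3 was far above the rest, no WT sample reached the Ngfr KO range, and the log2 difference was 1.50 (SE 0.28, limma adjusted p = 0.00252). Fasn, the fatty acid synthase, had 1.07, 1.41, 2.04 and 1.74 in WT and 1.61, 1.97 and 2.09 in Ngfr KO, a log2 change of 0.18 (95% confidence interval -0.17 to 0.54, limma adjusted p = 0.403). Acly, which supplies cytosolic acetyl-CoA, showed a log2 change of -0.01 (95% confidence interval -0.40 to 0.37, limma adjusted p = 0.958). Of the stearoyl-CoA desaturases, Scd1 showed a log2 change of -0.12 and Scd2 of 0.48, with limma adjusted p-values of 0.560 and 0.131. Scd2 ran from 4.25 to 9.94 in WT and from 9.82 to 11.6 in Ngfr KO, so WT replicate 4 alone reached into the Ngfr KO range. Acaca, the acetyl-CoA carboxylase, did not pass the filter, had 102 to 242 reads per sample, and was not called by edgeR (log2 change -0.41, adjusted p = 0.440).

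Values are not divided by transcript length in the deposited table, so levels were ranked per kilobase of merged exons (GENCODE M21, GRCm38). In WT the highest were Npc2 (3.27 per kilobase), Msmo1 (2.51), Ebp (2.45), Insig2 (2.19) and Abca1 (1.90). In Ngfr KO they were Msmo1 (8.14), Insig2 (4.99), Sc5d (4.50), Ebp (4.46) and Idi1 (4.21), while Abca1 stood at 1.07 per kilobase and rank 18. Neighbours such as Sc5d and Ebp were closer to each other than their spread between samples. Acaca and Abcg1 were the lowest in both groups, at 0.0433 and 0.0420 per kilobase in WT.

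Other genes of the same and neighbouring pathways were read from lists. Of 7 further tested sterol synthesis genes none was called by limma, 2 had an unadjusted p under 0.05, and edgeR and DESeq2 each called 1 of the list. Of the 5 tested genes on the list of other SREBP2 targets 2 were called, both higher: Tmem97, a sterol-regulated membrane protein, by 1.00 (SE 0.20, limma adjusted p = 0.00315) and Rdh11, a retinol dehydrogenase, by 0.71 (SE 0.15, limma adjusted p = 0.00480). Of 10 tested genes of SREBP processing and degradation none was called by limma or edgeR, 2 had an unadjusted p under 0.05, and DESeq2 called 1.

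On the list of other fatty acid genes, 11 of 18 tested were called higher, none lower, with a median log2 change of 0.52. The largest were Elovl1, the elongase of very long chains, from 5.85 ± 2.03 (SD, n = 4) to 15.6 ± 2.3 (SD, n = 3) (log2 change 1.31, limma adjusted p = 0.00134), and Hacd2, the dehydratase of the elongation cycle, from 5.30 ± 1.49 to 12.9 ± 3.0 (log2 change 1.15, limma adjusted p = 0.00243). Fads3, of the fatty acid desaturase family, showed a log2 change of 0.87 (limma adjusted p = 0.00600). The count fell to 6 without Ngfr KO replicate 2. Of 14 tested fatty acid oxidation genes 3 were called, all higher, which is close to the share over all genes: Cpt2, Etfdh and Hadhb, with log2 changes of 1.10, 0.79 and 0.60. Hadhb was not called by edgeR (adjusted p = 0.0648) and its groups overlapped. On the oxysterol list, 2 of the 4 tested genes were called, both higher. Cyp7b1, which hydroxylates oxysterols at the 7-alpha position, and Hsd3b7, which acts on the product, had log2 changes of 0.83 and 0.86 (limma adjusted p = 0.00252 and 0.00371).

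On the liver X receptor list 6 genes were tested, 3 called lower and 2 higher. Apoe, the lipoprotein that accepts exported cholesterol, had 95.7, 117, 91.5 and 89.0 in WT and 55.0, 57.5 and 36.3 in Ngfr KO, a log2 difference of -0.99 (SE 0.22, limma adjusted p = 0.00634). Mylip, a ubiquitin ligase, had a log2 difference of -1.35 (SE 0.32, limma adjusted p = 0.00777) but ran from 1.70 to 6.58 in WT and was not called without a filter (limma adjusted p = 0.0606). Smpdl3a, a phosphodiesterase, moved the other way, with a log2 difference of 0.94 (SE 0.19, limma adjusted p = 0.00328). Of 12 tested genes of sterol uptake and transport limma called 25%, against 34.2% of all genes tested. Cav1, the caveolar protein, showed a log2 change of -1.50, Tspo of 0.69 and Lipa of 0.45. The other 9 were not called by limma, and 5 of the 12 had an unadjusted p under 0.05. Of the whole list edgeR called 3, all higher, and DESeq2 called 6. Cav1 had overlapping groups and an edgeR adjusted p of 0.0670, and that of Lipa was 0.0604.

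**Figure D5:**
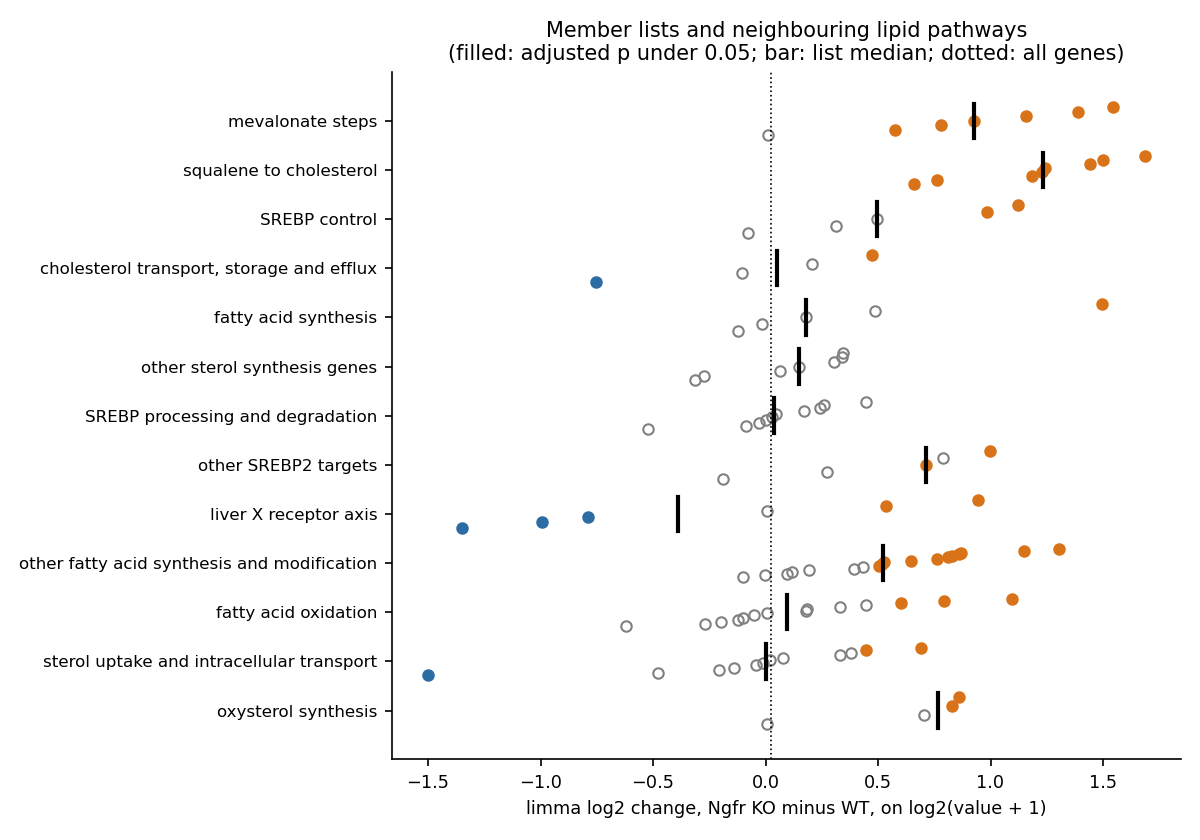
limma log2 change of every tested gene in the 5 member groups and 8 neighbouring lipid lists; filled points are called (orange higher, blue lower in Ngfr KO), open points are not, black bars are list medians and the dotted line is the median of all genes. The 2 sterol groups and the list of other fatty acid genes hold most of the orange points.

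B-cell marker sums overlapped between groups, at 16.7 to 28.7 in WT but 11.2 to 44.7 in Ngfr KO. Of 5 tested B-cell markers limma called 1, higher, and of the whole list edgeR called 0 and DESeq2 called 1. T-cell marker sums overlapped too, and none of 4 tested was called by limma, with 0 at an unadjusted p under 0.05 and 0 by edgeR or DESeq2. Of 6 listed adipocyte markers only Plin1 was in the table, at a value of at most 0.0311. Libraries held 17244925 to 18873542 reads in WT and 20741770 to 21538400 in Ngfr KO, every Ngfr KO library being deeper (p = 0.0286 by a two-sided exact permutation test, the lowest that 35 splits can give). Mitochondrial transcripts took 5.55% to 7.42% of reads in WT and 3.14% to 4.97% in Ngfr KO (p = 0.0571 by the same exact test). After the reads of each library were thinned to the lowest total, 14 of the 15 tested sterol genes were called higher as well. The samples are described as independent pools, with no litter or day given, so p-values measure the spread between pools.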

How the data were processed

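Normalised signal, 1 value per gene and sample, is what the authors deposited, under the name TMM (trimmed mean of M values). The submitters' processing notes name bcl2fastq 2.20.0.422 and the mm10 build; the aligner, counter, annotation and strand setting are not given in the sources used here. The labels' protocols name SMART-Seq v4 for cDNA and Nextera XT for libraries, and mention no molecular identifiers. In each sample 100% of values were whole multiples of 1 step within 0.05 reads, which recovered the reads; a value of 1 was worth 230 to 295 reads.

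limma 3.58.1 (R 4.3.3, lmFit, eBayes with trend) compared Ngfr KO with WT on log2(value + 1) over the 8326 genes that reached 1 in 3 or more samples, with Benjamini-Hochberg adjustment over all of them. The pseudocount understates changes of low genes. Alternatives were pseudocounts of 0.1 and 5, no filter, a filter at 10, quantile and median ratio scaling, edgeR 4.0.16 and DESeq2 1.42.0 on recovered reads, thinned reads, the replicate number as a block and leaving out each replicate. Removal of each sample's trend with transcript length was added after the data were seen. Scripts were tested on simulated data.

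Every member is named; from each further list the called genes with the largest change, at most 3, are named. Members and lists were chosen with earlier results of these data known. Promoters came from RefSeq and lengths from GENCODE M21 (GRCm38), matched by symbol and identifier.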

Additional observations from a re-analysis of the deposited data

Results flagged for a closer look

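In 54 results the 4 WT samples were examined for a sample set apart from the others by more than Dixon's critical value for groups of that size, as a share of the group's whole range; chance gives about 2.7 such results. There were 3. Nsdhl was low in WT replicate 1 (1.23, against 1.97 to 2.10 in the other WT samples), a gap of 0.847 of the range. Insig2 was high in WT replicate 3 (11.0, against 6.31 to 6.86), a gap of 0.881 of the range. Hsd3b7 was high in the same replicate (9.64, against 7.62 to 7.89), a gap of 0.864 of the range. In all 3 genes these WT samples still lay below every Ngfr KO sample.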

How the results depend on the processing

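Of the 19 called members, 15 kept their direction and call under every alternative that tested them; the exceptions were Mvk, Hsd17b7, Insig1 (no filter, limma adjusted p = 0.0511) and Npc1, and none changed direction. With genes kept only if they reached 10 in 3 or more samples, 535 genes were called, with 7 members of 8 tested (6 higher), all 5 tested sterol genes and all 3 tested genes of the other fatty acid list; fewer genes are tested there. Without a filter that last list had 7 calls, and the cause was not tested. Leaving out 1 replicate gave 1614 to 3006 called genes (1870 without WT replicate 1, 1803 without Ngfr KO replicate 1 and 1614 without Ngfr KO replicate 2), 15 to 19 members, 11 to 14 sterol genes and 6 to 12 of the other fatty acid list. Fewer sterol genes are tested when a Ngfr KO replicate is left out, since Mvk and Mvd then miss the filter. The library size difference was 3101990 to 3685290 reads, with exact permutation p-values of 0.0667 to 0.1, the smallest those sizes allow.

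Direction changed only in uncalled members near 0. Pmvk had -0.00561 with quantile normalization and -0.157 with the length trend removed. Scap had 0.00803 with the replicate block and 0.0234 with the length trend removed. Acly had 0.0429 with median ratio scaling, 0.0534 with edgeR and 0.0552 with DESeq2. Leaving out 1 replicate gave log2 changes of -0.0945 to 0.0978 for Pmvk, -0.184 to 0.0179 for Scap, -0.263 to 0.0630 for Stard4 and -0.122 to 0.123 for Acly.

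The replicate numbers come from the titles and only name samples: same-numbered samples had deviation correlations of 0.298, -0.0593 and -0.0108. With the replicate block 2717 genes and 20 members were called. Scd2 (log2 change 0.62, limma adjusted p = 0.0441) and Srebf2 (0.66, limma adjusted p = 0.0168) were called in addition, while Npc1 was not (0.0743). No Ngfr KO sample shares the number of WT replicate 4, so the block takes that sample out of the estimate. Leaving out WT replicate 4 gave the same log2 changes, 0.62 for Scd2 (limma adjusted p = 0.0723) and 0.66 for Srebf2 (limma adjusted p = 0.0319). Reads of the 5 members that missed the filter limit what could be detected in them.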
